A study of Mus musculus with 6 samples.

Results

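The genes described here are 9 mouse genes of retinoid metabolism and transport, Rbp4, Ttr, Lrat, Rdh16, Aldh1a1, Aldh1a2, Aldh1a3, Crabp2 and Rarb, out of 56884 genes in the mouse count table. They were chosen by name, with their levels in these same 6 libraries already known, so their levels and fold changes are a description and carry no test. RNA came from the livers of athymic BALB/c (nu/nu) males, 6 weeks of age per the labels, implanted with the human hepatocellular carcinoma line QGY-7703. The 3 siControl libraries were from mice given AAV8 with a control siRNA, and the 3 siAATF libraries from mice given AAV8 with an siRNA against mouse Aatf, in both cases 1 week after implantation and 3 weeks before the end of the study. The siRNA was driven by the TBG promoter, which is active in hepatocytes, and all mice of both groups lacked a thymus and carried a human tumor. The labels call the samples liver and separate replicates, but do not say that each came from its own mouse, so that p-values measure the spread between these libraries.

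Vitamin A reaches tissues as retinol, carried in blood by retinol-binding protein (Rbp4) bound to transthyretin (Ttr), both secreted by hepatocytes. Within the liver, hepatic stellate cells store it as retinyl esters, which lecithin-retinol acyltransferase (Lrat) makes. Cells that need the hormone oxidize retinol to retinaldehyde, through enzymes such as Rdh16, and retinaldehyde to retinoic acid, through the retinaldehyde dehydrogenases Aldh1a1, Aldh1a2 and Aldh1a3. Crabp2 carries retinoic acid to the nucleus, where receptors such as Rarb, itself a known target gene, bind DNA together with a retinoid X receptor.

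The mouse share of all counted reads was 0.778% to 1.93% in siControl (213022 to 913584 mouse counts) and 97.9% to 99.0% in siAATF (11835898 to 42563694). All levels below are CPM (mouse counts scaled to a total of 1000000) after TMM normalization, a scaling for RNA composition, unless another scale is named. A gene with 0 counts could still have reached 3 counts, which on this scale is 1.67 to 7.25 CPM in siControl against 0.104 to 0.605 CPM in siAATF. On that scale the median log2 fold change of all 18018 genes tested was 0.50, siAATF over siControl, and 17.6% of them were called higher and 14.4% lower in siAATF (edgeR's quasi-likelihood test, adjusted p under 0.05). The targeted gene, Aatf, had 9.63, 2.42 and 12.8 CPM in siControl replicates 1 to 3, against 13.3, 22.0 and 18.9 in siAATF replicates 1 to 3, so that its level was not lower under the siAATF label (log2 fold change 0.93, adjusted p = 0.152, edgeR), and every direction given here is between labels. The siControl values rest on 12, 1 and 23 counts. By immunoblot, the paper reported AATF protein silenced in the tissue around the tumor, and it also names qPCR as a check. Protein was not measured here. Mitochondrial genes held 4.04% to 10.5% of mouse counts in siControl against 25.7%, 56.1% and 20.8% in siAATF replicates 1 to 3.

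Markers of several host cell types differed between the groups. All 10 hepatocyte markers were called higher in siAATF, with summed levels of 2049 to 5465 CPM in siControl against 35323 to 83504 CPM in siAATF, and Alb was detected in every library. All 10 activated fibroblast markers were called lower, with sums of 8422 to 12141 CPM against 68.8 to 164 CPM. Quiescent stellate cell markers summed to 465 to 529 CPM in siControl against 307 to 443 CPM in siAATF, with 2 of 11 called higher and 2 lower, and Reln overlapped between the groups. Mesothelial markers (85.9 to 392 CPM against 150 to 655 CPM) had 1 of 8 called lower, endothelial markers (314 to 413 against 96.0 to 210) 4 of 8 lower and 1 higher, macrophage markers (295 to 857 against 91.2 to 162) 3 of 8 lower, and cholangiocyte markers (24.2 to 57.0 against 32.5 to 42.2) 2 of 5 tested lower. Since the RNA is from bulk tissue, fewer cells of a type and less RNA per cell cannot be told apart.

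Of the 9 retinoid genes, 4 were higher in every siAATF library than in any siControl library (Rbp4, Ttr, Rdh16 and Aldh1a1), 2 were lower in every siAATF library (Aldh1a2 and Rarb), and 3 overlapped (Lrat, Aldh1a3 and Crabp2). Among all genes tested, 34.5% were higher and 18.1% lower without overlap. Crabp2, with 5 counts in all, did not reach the minimum of 10 counts for the fit. Of the 8 that did, 4 were called higher and 1 lower, beside the 17.6% and 14.4% of all genes, and nothing is read from this since the genes were chosen on the same contrast. Scaling by library size alone, which put the median of all genes at -1.30, moved the log2 fold changes of Rbp4 to 2.08, Ttr to 3.23, Rdh16 to 2.40, Aldh1a1 to 1.85, Aldh1a2 to -9.85, Aldh1a3 to -2.67 and Rarb to -4.28.

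**Figure D1:**
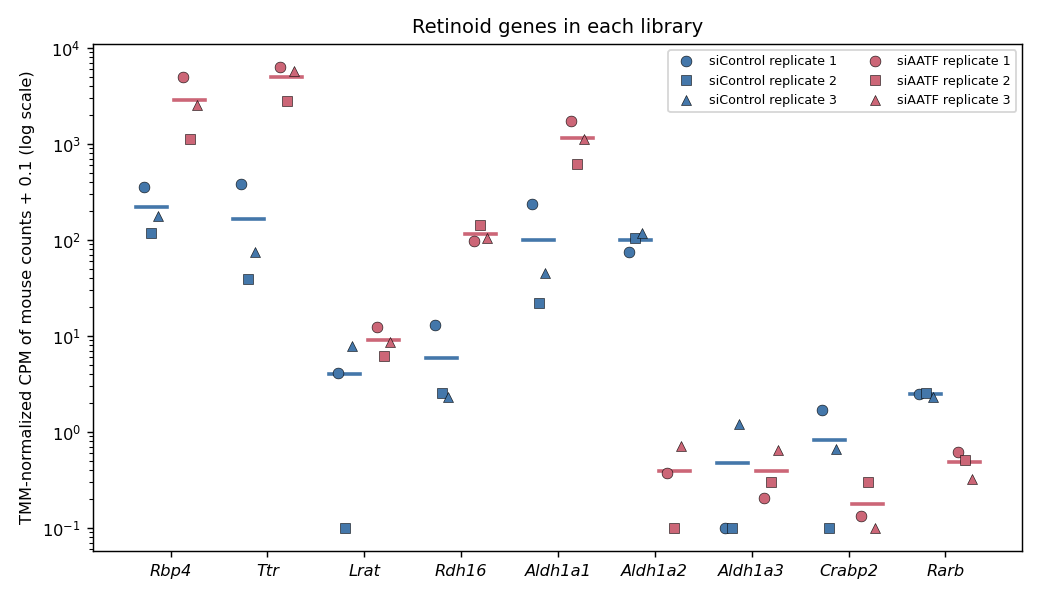
TMM-normalized CPM of mouse counts plus 0.1 (log axis) of the 9 retinoid genes in each of the 6 libraries, with siControl in blue, siAATF in red, a symbol for each replicate and a line at each group mean. Aldh1a2 lies at 74.7 to 118 CPM in siControl and at 0 to 0.610 CPM in siAATF, while Rbp4, Ttr, Rdh16 and Aldh1a1 lie higher in siAATF.

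Promoters of the receptor gene Rarb and of the dehydrogenase genes Aldh1a1 and Aldh1a2 are shown because retinoic acid receptors bind a known DNA element, which was searched for in them. Of the 9 genes, 6 were found among the promoter sequences used, which span 250 bases before to 50 bases after a RefSeq start (GRCm38.p6, with 8 entries for the 6 genes). They were searched on both strands for the retinoic acid response element of the DR5 kind, which has 5 bases between its half-sites, and of the DR2 kind, which has 2. A DR5 match was found in 0.0975% of all 32817 promoters (32 of them) and a DR2 match in 0.268%. Among the 8 entries, the Rarb promoter (minus strand of chr14:16575427-16575726) held a DR5 match, 53 to 37 bases before the start, shown in capitals, and no entry held a DR2 match.
Rarb: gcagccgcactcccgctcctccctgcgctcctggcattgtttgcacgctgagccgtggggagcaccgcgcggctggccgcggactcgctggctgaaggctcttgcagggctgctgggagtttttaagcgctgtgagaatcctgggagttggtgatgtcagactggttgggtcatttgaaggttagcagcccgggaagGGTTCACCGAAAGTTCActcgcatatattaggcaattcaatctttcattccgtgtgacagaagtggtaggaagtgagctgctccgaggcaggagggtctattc
Of 59 further retinoid genes, 46 had an entry, and Cyp26a1 (plus strand of chr19:37697558-37697857), which breaks down retinoic acid, was the one with a match. Its DR5 lies on the opposite strand, 32 to 16 bases before the start, in capitals.
Cyp26a1: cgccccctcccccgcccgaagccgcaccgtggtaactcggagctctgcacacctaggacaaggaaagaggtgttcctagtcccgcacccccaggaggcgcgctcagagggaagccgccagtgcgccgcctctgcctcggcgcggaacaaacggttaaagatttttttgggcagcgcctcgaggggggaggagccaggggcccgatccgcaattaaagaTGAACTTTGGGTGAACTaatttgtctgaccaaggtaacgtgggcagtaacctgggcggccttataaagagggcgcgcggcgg
The promoters of Aldh1a2 (plus strand of chr9:71215539-71215838) and of Aldh1a1 (plus strand of chr19:20601718-20602017, one of 2 starts) held neither element, which says only that these letters are not in this window.
Aldh1a2: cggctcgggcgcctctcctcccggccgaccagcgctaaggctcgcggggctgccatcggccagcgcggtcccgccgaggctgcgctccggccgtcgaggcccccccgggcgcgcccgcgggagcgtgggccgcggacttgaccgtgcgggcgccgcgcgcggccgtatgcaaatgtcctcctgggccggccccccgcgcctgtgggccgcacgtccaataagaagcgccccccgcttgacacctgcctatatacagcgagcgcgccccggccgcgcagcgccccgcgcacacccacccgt
Aldh1a1: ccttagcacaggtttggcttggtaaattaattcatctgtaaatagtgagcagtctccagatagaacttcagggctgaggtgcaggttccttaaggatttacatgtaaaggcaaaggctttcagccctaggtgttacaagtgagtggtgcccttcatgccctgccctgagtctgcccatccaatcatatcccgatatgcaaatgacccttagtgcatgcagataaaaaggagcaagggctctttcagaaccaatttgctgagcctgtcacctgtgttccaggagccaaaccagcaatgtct
Both carry the letters CCAAT, as did 37.4% of all promoters.

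Rbp4 (ENSMUSG00000024990, GRCm39 chromosome 19, 38105077 to 38113696), the carrier of retinol in blood, had 448, 49 and 317 counts in siControl replicates 1 to 3, against 143641, 5554 and 45681 in siAATF replicates 1 to 3. These are 360, 118 and 177 CPM against 4957, 1120 and 2534 CPM, a fitted log2 fold change of 3.71 (standard error 0.76). The lowest siAATF library, replicate 2, was still above the highest siControl library, replicate 1. Ttr (ENSMUSG00000061808, GRCm39 chromosome 18, 20798337 to 20807378), which holds Rbp4 in the circulation, had 378, 38.7 and 74.7 CPM in siControl against 6327, 2824 and 5734 CPM in siAATF (log2 fold change 4.91, standard error 0.97). Here too siControl replicate 1 was the highest of its group and siAATF replicate 2 the lowest of its own. Without siControl replicate 1 the log2 fold change of Ttr was 6.41, and without siAATF replicate 1 that of Rbp4 was 3.11.

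Because the hepatocyte markers differed as well, the counts of each gene were set against the summed counts of the 10 markers in the same library, a ratio that needs no normalization. For each 1000 marker counts there were 65.8, 57.8 and 79.2 Rbp4 counts in siControl against 59.4, 31.7 and 31.8 in siAATF, and the groups overlapped. The same ratio for Ttr was 69.2, 18.9 and 33.5 in siControl against 75.8, 79.9 and 71.8 in siAATF. Relative to hepatocyte markers, Ttr was therefore still higher in every siAATF library, by a small margin over siControl replicate 1, whereas the higher level of Rbp4 was no longer seen (means 67.6 ± 10.8 and 40.9 ± 15.9, SD, n = 3). The hepatocyte marker sum of siControl replicate 1, 5465 CPM, was also the highest of its group.

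**Figure D2:**
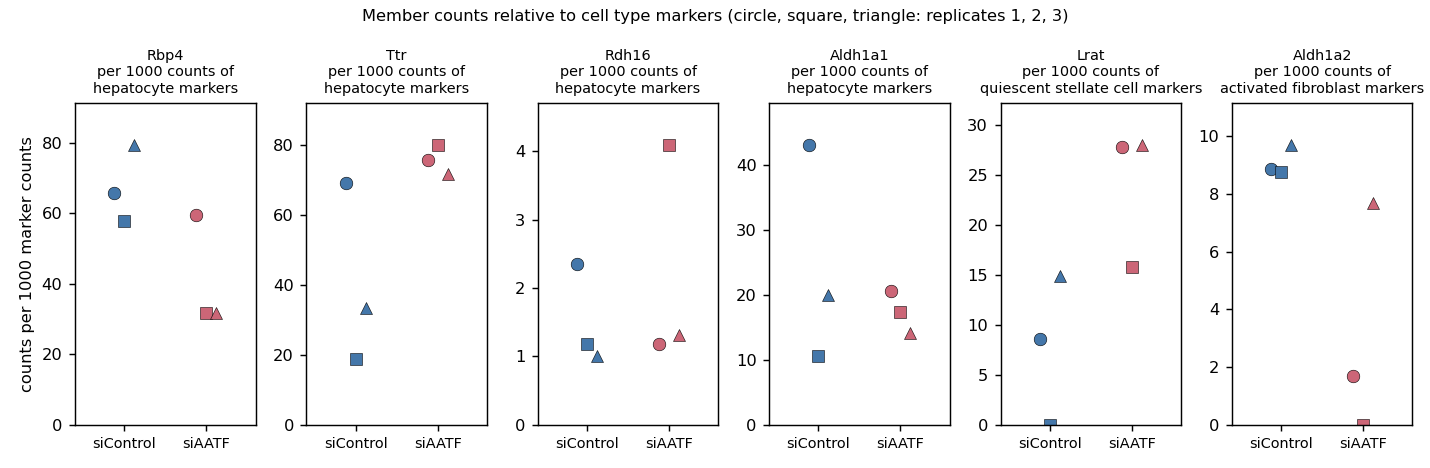
Counts of 6 retinoid genes for each 1000 counts of the marker list named above each panel, in siControl (blue) and siAATF (red), with 1 symbol a library. Rbp4, Rdh16 and Aldh1a1 overlap between the groups on this scale, and Ttr and Lrat lie higher in siAATF, by small margins. Aldh1a2 lies at 8.75 to 9.69 in siControl against 0 to 7.71 in siAATF.

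Lrat (ENSMUSG00000028003, GRCm39 chromosome 3, 82799886 to 82811280), the retinyl ester synthase of stellate cells, had 5, 0 and 14 counts in siControl against 357, 30 and 155 in siAATF. On the CPM scale these were 4.01, 0 and 7.81 against 12.3, 6.05 and 8.60, with a log2 fold change of 0.89 (standard error 0.62) and overlapping groups. At the mean siAATF level, 31.0 counts would be expected over the 3 siControl libraries, and 19 were found. Scaling by library size alone turned the sign, to -0.83, and the value was 1.71 without siControl replicate 3. For each 1000 counts of the 11 stellate markers there were 8.64, 0 and 14.9 Lrat counts in siControl against 27.8, 15.8 and 28.0 in siAATF, which did not overlap. The margin was small, between siControl replicate 3 and siAATF replicate 2, which rest on 14 and 30 Lrat counts. In the same stellate list, Cygb and Des were called lower and Colec10 and Colec11 higher in siAATF, so that its members did not move together.

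Rdh16 (ENSMUSG00000069456, GRCm39 chromosome 10, 127637023 to 127651708), a microsomal retinol dehydrogenase of the liver, had 16, 1 and 4 counts in siControl against 2853, 716 and 1894 in siAATF. These were 12.8, 2.42 and 2.23 CPM against 98.4, 144 and 105 CPM (log2 fold change 4.22, standard error 0.61, and 5.65 without siControl replicate 1). Unlike Rbp4, Ttr and Aldh1a1, its highest value was in siAATF replicate 2. For each 1000 hepatocyte marker counts, Rdh16 had 2.35, 1.18 and 1.00 counts in siControl against 1.18, 4.09 and 1.32 in siAATF, with overlap. Rdh16 belongs to a cluster of similar genes on chromosome 10, and reads that matched several of them were discarded, so that its counts are uncertain.

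The balance of the retinaldehyde dehydrogenases, which make retinoic acid, was unlike between the groups. Aldh1a1 (ENSMUSG00000053279, GRCm39 chromosome 19, 20470079 to 20620829) had 293, 9 and 80 counts in siControl against 49712, 3038 and 20398 in siAATF. Its level was 235, 21.7 and 44.6 CPM against 1715, 613 and 1132 CPM (log2 fold change 3.50, standard error 0.83, and 5.05 without siControl replicate 1). Set against the hepatocyte markers, the groups overlapped, with 43.0, 10.6 and 20.0 counts for each 1000 marker counts in siControl against 20.5, 17.3 and 14.2 in siAATF.

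Aldh1a2 (ENSMUSG00000013584, GRCm39 chromosome 9, 71123071 to 71203525), the isozyme of embryonic and mesenchymal tissues, went the other way. It had 93, 43 and 211 counts in siControl against 8, 0 and 11 counts in siAATF, although the siAATF libraries held many more mouse counts. The level was 74.7, 104 and 118 CPM in siControl against 0.276, 0 and 0.610 CPM in siAATF, with means of 98.7 ± 22.0 and 0.295 ± 0.306 (SD, n = 3) and a log2 fold change of -8.06 (standard error 0.63, and -8.68 without siAATF replicate 3). At the siControl level, 5131 counts would be expected over the siAATF libraries, where 19 were found, so that depth was not the limit. Scaled to human and mouse counts together, Aldh1a2 was also lower in every siAATF library, at 2.55, 1.57 and 3.90 in siControl against 0.186, 0 and 0.311 in siAATF, the only one of the 8 fitted genes lower on that scale, on which the median log2 ratio of all genes was 4.78 and 96.1% were higher in siAATF.

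The activated fibroblast markers moved with Aldh1a2. For each 1000 of their counts there were 8.87, 8.75 and 9.69 Aldh1a2 counts in siControl, a narrow range, and 1.69, 0 and 7.71 in siAATF, where the counts were few. Mesothelial cells are also known to use Aldh1a2. Krt8, a keratin of other epithelial cells too, made up most of the summed level of their markers. Without it, a choice made after values were seen, the other 7 markers summed to 32.1, 7.25 and 16.7 CPM in siControl against 3.80, 5.24 and 26.1 CPM in siAATF, with overlap. Of these 7, 5 had negative log2 fold changes, and 1, Wt1, was called lower (-2.78), with 4.01, 2.42 and 4.46 CPM against 0.345, 0.605 and 0.721 CPM. Msln, at 5.62, 0 and 2.79 CPM against 0.276, 3.03 and 13.1 CPM, overlapped (0.73). The part of fibroblasts or mesothelial cells in the level of Aldh1a2 was not tested.

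Aldh1a3 (ENSMUSG00000015134, GRCm39 chromosome 7, 66040638 to 66077265), the third isozyme, was near the limit of detection in both groups. It had 0, 0 and 2 counts in siControl against 3, 1 and 10 in siAATF, with a ratio of the summed rates, siAATF over siControl, of 0.465 and a 95% exact interval of 0.107 to 4.22 that covers counting error only. No difference was detectable at this depth, and the fitted log2 fold change of -0.84 (standard error 1.43) rests on siControl replicate 3, the one library of that group with any count, so that without it no fold is given.

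In counts per kilobase, which allow genes to be compared, Aldh1a2 made up 25.1%, 83.5% and 73.4% of the 3 isozymes in siControl replicates 1 to 3, with a mean of 60.7% ± 31.2 (SD, n = 3), and Aldh1a1 made up the remaining 74.9%, 16.5% and 26.3% but for 0.355% of Aldh1a3 in replicate 3. In siAATF, Aldh1a1 made up 99.98%, 99.98% and 99.92%, and Aldh1a2 at most 0.0570%. The siControl libraries thus differed widely among themselves, and the one with most hepatocyte marker RNA, replicate 1, was the one in which Aldh1a1 was the larger part.

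**Figure D3:**
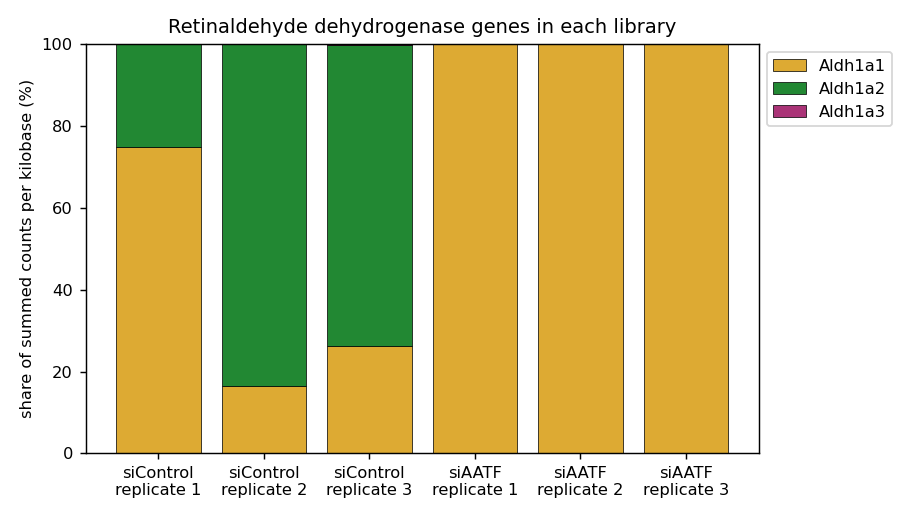
Share of Aldh1a1, Aldh1a2 and Aldh1a3 in their summed counts per kilobase, in percent, as 1 stacked bar for each of the 6 libraries. Aldh1a2 takes 25.1% to 83.5% of the siControl bars and is too small to be seen in the siAATF bars.

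Crabp2 (ENSMUSG00000004885, GRCm39 chromosome 3, 87855973 to 87860683), which delivers retinoic acid to its receptors, was hardly detected. It had 2, 0 and 1 counts in siControl against 1, 1 and 0 in siAATF. Because siAATF held more mouse counts, the summed rate was higher in siControl, by a ratio of 22.6 with a 95% exact interval of 2.59 to 270.3 for counting error alone, but with so few molecules the libraries overlapped.

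Rarb (ENSMUSG00000017491, GRCm39 chromosome 14, 5893936 to 6038924), a retinoic acid receptor, had 3, 1 and 4 counts in siControl against 15, 2 and 4 in siAATF. These were 2.41, 2.42 and 2.23 CPM against 0.518, 0.403 and 0.222 CPM (log2 fold change -2.57, standard error 0.93). The siControl values were close to each other and above every siAATF value, yet each rests on 1 to 4 counts, and Rarb was not among the genes called lower. Scaled to human and mouse counts together, the log2 ratio of the means was 1.70, on a scale where the median of all genes was 4.78. For each 1000 counts of the activated fibroblast markers, Rarb had 0.286, 0.204 and 0.184 counts in siControl against 3.16, 5.87 and 2.80 in siAATF.

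Per kilobase, the order of the mean levels in siControl was Rbp4 (177 ± 102, SD, n = 3), Ttr (138 ± 157), Aldh1a2 (43.6 ± 9.70), Aldh1a1 (42.0 ± 48.9), Rdh16 (1.82 ± 1.89), Crabp2 (0.775 ± 0.876), Lrat (0.737 ± 0.730), Rarb (0.693 ± 0.0308) and Aldh1a3 (0.0839 ± 0.145), all in CPM per kilobase. By range over the libraries, all pairs among the first 4 overlapped but Rbp4 and Aldh1a2. So did all pairs among the last 5 but Aldh1a3 with Rdh16 and with Rarb, while the first 4 all lay above the last 5. Within every siControl library, however, Rbp4 and Ttr were above Aldh1a1, and Rdh16 was above Crabp2 and Rarb. The order of the other overlapping pairs is not fixed by the data. In siAATF the order was Ttr (4183 ± 1581), Rbp4 (2330 ± 1575), Aldh1a1 (482 ± 230), Rdh16 (36.2 ± 7.75) and Lrat (1.68 ± 0.589), followed by Aldh1a2, Rarb, Crabp2 and Aldh1a3 at 0.0646 to 0.130 on average. Of the first 5, only Ttr and Rbp4 overlapped in range, although Ttr was above Rbp4 within every siAATF library. The last 4, which overlapped with each other, reached at most 0.270. Aldh1a2 thus stood beside Aldh1a1 in siControl and beside the barely detected genes in siAATF.

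Another 59 retinoid genes, listed by function, were examined in the same fit. They were not among the 9, so their calls are tests, although the list was written with other results of these data known. Of the 59, 50 were tested, 3 had no count in any library (Isx, Sdr16c6 and Cdx1) and 6 had too few. In siAATF, 23 were called higher, or 46% of those tested beside 17.6% of all genes, and 4 were called lower, or 8% beside 14.4% (edgeR's quasi-likelihood test, Benjamini-Hochberg adjusted p under 0.05). Their median fold change was 2.25 on the log2 scale, and 1.07 with the 4 genes without siControl counts set to their bound of 3 counts per library, beside 0.50 for all genes. The calls depend on scaling, with 13 higher and 11 lower by library size alone, where 4.15% of all genes were called higher and 40.4% lower. Without siControl replicate 3 there were 0 lower, and the share of all genes called lower was 9.70%. The hepatocyte markers moved with the higher genes (median log2 fold change 4.46) and the activated fibroblast markers with the lower ones (-5.16), and their part in these calls was not tested. Scaled to human and mouse counts together, the 4 lower genes had higher means in siAATF, as 96.1% of all genes did.

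Among genes of uptake, storage and release, 4 of 9 tested were higher and 1 was lower, to be read, like the counts of the other roles, beside the 17.6% and 14.4% of all genes. Stra6l, a receptor for Rbp4 in the liver, rose from 24.1 ± 12.7 to 161 ± 41.0 CPM (SD, n = 3) (log2 fold change 2.72, standard error 0.48, adjusted p = 0.000977, edgeR). Ces1d, a retinyl ester hydrolase, had 12.0, 0 and 1.67 CPM in siControl against 784, 82.3 and 42.7 in siAATF (log2 fold change 5.86, adjusted p = 0.00294, edgeR). It was at 3.64 without siAATF replicate 1, at 6.47 without siAATF replicate 3 and at 7.85 without siControl replicate 1. Bco1 and Bco2, which cleave carotenoids, rose by 1.48 and 3.52 on the log2 scale (adjusted p = 0.0421 and 0.00596, edgeR), but the call of Bco1 was lost under 10 of its 14 alternatives, and by library size alone its sign turned, while the calls of Stra6l (0.90) and Bco2 (1.81) were lost. Bco2 had siControl counts in replicate 1 alone, 5 of them, and was at 2.60 without siControl replicate 3. Rbp7 was lower, by -3.65 (adjusted p = 0.0371, edgeR), on 0, 2 and 5 siControl counts and 4, 1 and 3 siAATF counts, with siControl replicate 1 overlapping, and this call was lost with the replicate block (-3.28) and when siControl replicate 2, siControl replicate 3, siAATF replicate 1 or siAATF replicate 3 was left out (-3.60 to -3.15). Without siControl replicate 1 it was -4.37. Stra6, the Rbp4 receptor of other tissues, had 1 count in all 6 libraries.

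Of the retinol and retinaldehyde oxidoreductases, 10 of 17 tested were higher and 0 lower. Among those called, the 5 with the largest changes were Hsd17b6 (4.73), Rdh16f2 (4.72), Rdh7 (4.66), Adh4 (4.34) and Adh7 (4.13), as log2 fold changes. Rdh7 had 133, 31.4 and 28.4 CPM in siControl against 1699, 1407 and 1835 in siAATF (adjusted p = 0.000530, edgeR). Without siControl replicate 1, Rdh7 was at 5.78 and Adh4 at 5.29, and without siControl replicate 3 Rdh16f2 was at 5.38. Rdh16f2, Rdh7, Rdh9, Rdh1 and Rdh19 resemble Rdh16, and their counts are uncertain for the same reason. Dhrs3, which turns retinaldehyde back to retinol and is known to be induced by retinoic acid, had 109, 82.1 and 101 CPM in siControl against 289, 144 and 197 in siAATF, which did not pass (log2 fold change 1.10, standard error 0.42, adjusted p = 0.0637, edgeR), although Dhrs3 was called higher under 4 alternatives (DESeq2, the replicate block, at least 10 counts in every library and without siAATF replicate 2), and its sign turned by library size alone.

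All 4 oxidases and relatives of the Aldh1a genes were higher, Aox3 by 5.90, Aldh8a1 by 4.20, Aldh1a7 by 3.29 and Aox1 by 2.93 on the log2 scale (adjusted p from 8.04e-05 to 0.00303, edgeR). By library size alone the calls of Aldh1a7 (1.56) and Aox1 (1.23) were lost. Without siControl replicate 1, these 4 were at 7.06 (Aox3), 4.84 (Aldh8a1), 4.48 (Aldh1a7) and 4.30 (Aox1). Aldh1a7 is a close relative of Aldh1a1 on the same chromosome, and reads that fit both were discarded. Of the genes that bind or break down retinoic acid, 2 of 6 tested were higher. Cyp26a1, the main retinoic acid hydroxylase of the liver and a known target of the hormone, had 0.803, 0 and 3.90 CPM in siControl against 34.9, 21.0 and 55.4 in siAATF (log2 fold change 4.09, standard error 0.66, adjusted p = 0.000550, edgeR). Without siControl replicate 3, Cyp26a1 was at 5.93. Cyp2c39 rose by 5.40, with siControl counts in replicate 1 alone, 5 of them, so that without that library no fold is given. It was at 4.48 without siControl replicate 3 and at 4.73 without siAATF replicate 3. Cyp26b1 had 0.803, 0 and 2.23 CPM against 1.45, 0.403 and 0.777 and overlapped. Cyp26c1 had 0 counts in siControl against 34, 8 and 15 in siAATF, a level at which 4.16 siControl counts would be expected in all, and the 95% exact counting interval of its ratio, siAATF over siControl, began at 0.994.

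Among the receptors, Rxra and Rxrg were higher and Rarg was lower. Rxra, the main retinoid X receptor of hepatocytes, had 99.6, 53.1 and 60.8 CPM in siControl against 385, 323 and 362 in siAATF (log2 fold change 2.31, standard error 0.44, adjusted p = 0.00173, edgeR). Rxrg had 2 siControl counts and 474 in siAATF, a ratio of rates of 15.7 with a 95% exact counting interval of 4.33 to 130.4. Rarg had 16.1, 26.6 and 34.6 CPM against 6.90, 9.48 and 3.94, and fell by 1.96 on the log2 scale (standard error 0.45, adjusted p = 0.00565, edgeR). For each 1000 counts of the activated fibroblast markers, Rarg had 1.91, 2.24 and 2.85 counts in siControl against 42.2, 138 and 49.8 in siAATF. Rara had 24.9, 21.7 and 37.4 CPM in siControl against 28.4, 47.4 and 45.0 in siAATF and overlapped. By library size alone, the calls of Rxra and Rxrg were lost, and without siControl replicate 3 those of Rarg (-1.63) and Rxrg. Rxrg was at 3.82 on the log2 scale with all libraries and at 2.86 without siControl replicate 3, and siControl replicate 1 held the group's only counts, so that without it no fold is given. Of the genes listed as retinoic acid targets, 1 of 9 tested was higher and 2 were lower, near the shares of all genes (17.6% and 14.4%). This count leaves out the known targets Cyp26a1 (called higher), Dhrs3 and Rarb (not called), which stand under other roles or among the members. Rarres1 rose by 3.64, and the homeobox genes Hoxa4 and Hoxb4 changed by -3.72 and -1.78 (adjusted p = 0.0193 and 0.0199, edgeR). Without siControl replicate 3, which ended both Hox calls, they were at -2.43 and -1.45. Without siAATF replicate 1, Rarres1 was at 2.81 and Hoxb4 at -1.57, not called.

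**Figure D4:**
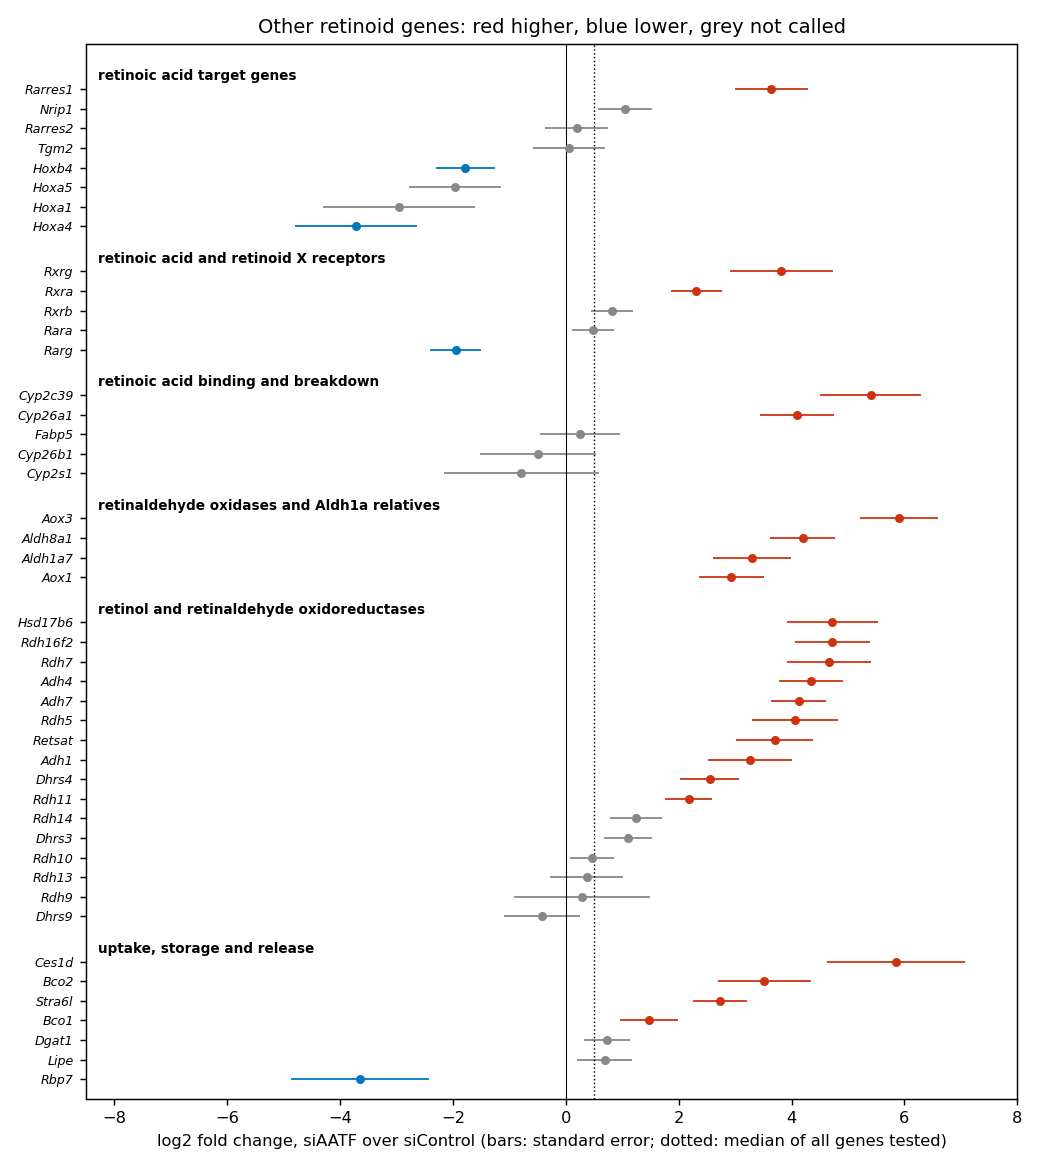
Fitted log2 fold changes (siAATF over siControl) with standard errors for 45 of the 50 tested genes of the wider retinoid list, by role, without the 4 that had no siControl counts and 1 not reported here. Called genes are red (higher) or blue (lower), others grey, and the dotted line marks the median of all genes tested, 0.50. The oxidoreductases and oxidases lie mostly to the right of it.

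The genes whose profile over the 6 libraries was most like that of each member were found by Euclidean distance of log2(CPM + 1), centred on each gene's mean, among 9466 genes with a mean of at least 50 counts. Aldh1a2 was closest to Slc16a3 (distance 0.534) and Ccl2 (0.870). The liver genes Acaa2 (0.543) and Sult1b1 (0.661) were closest to Rbp4, Amdhd1 (0.347) and Igfals (0.499) to Ttr, Pbld1 (0.416) and Reep6 (0.511) to Rdh16, and Fmo5 (0.528) and Ugt2b5 (0.573) to Aldh1a1. Lrat was closest to Gpsm2 (0.470) and Smim1 (0.540). Aldh1a3 was closest to Chpf2 (0.312) and Stx3 (0.415), and Rarb to Itga5 (0.171) and Git2 (0.189). The added 1 CPM draws values together where levels are low, as were those of Aldh1a3 and Rarb in both groups, of Aldh1a2 in siAATF and of Sult1b1, Amdhd1 and Igfals in siControl.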

How the data were processed

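The authors used Cutadapt for trimming and STAR for alignment to a joined human and mouse genome, kept uniquely placed reads of 1 species, and deposited raw featureCounts counts per gene, without normalization, in a human and a mouse table. The authors' notes name STAR 2.7.11 and featureCounts 2.0.1, and whether counting used the strand is not given in the sources used here. Reads shared by similar genes or by both species are missing from the counts. Libraries were grouped by column name and label, with 0 columns left unassigned. Of 56884 mouse identifiers, 56323 were named from GENCODE release 39 (GRCm39), while the authors counted on release 33. Coordinates are those of the deposited table. The human table served for totals only, without 3 lines that do not hold a whole gene record.

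The main model was edgeR's quasi-likelihood test (R 4.3.3 with edgeR 4.0.16 and limma 3.58.1) on the mouse counts of all genes with a total of at least 10, with TMM normalization (factors 1.77 to 1.97 in siControl and 0.419 to 0.681 in siAATF), group as the only term and Benjamini-Hochberg adjustment over all 18018 genes tested. Standard errors were derived from the fitted fold change and its F value. The alternatives were DESeq2 1.42.0, RLE, upper-quartile and library-size scaling, other filters, the replicate number as a block, each library left out, the study's criteria and CPM of all gene counts. On simulated counts in which 172 of 16986 genes were changed by 3 on the log2 scale, in either direction, the fit recovered 72.1% of them. It called 7 of 16814 unchanged ones. The simulation held no shift in RNA composition between the groups, so it does not test how the calls depend on scaling. Exact intervals are Clopper-Pearson at 95%, on rates scaled by the effective library sizes, and with floors cover counting error only, since PCR copies are not independent molecules.

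The members and lists were chosen with earlier results of these data known. Named genes are the members, called genes of the wider list (at most 5 per role and direction, by size of change), 7 genes of the list named whatever their values (1 more is not reported here), Aatf, 4 defining markers and the 2 nearest profiles of each member. Other genes, the ratios to marker counts and the sums without Krt8 were added after values were seen. Promoters are from RefSeq (GRCm38.p6). Figures were drawn with matplotlib 3.10.9 in Python 3.11.15.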

Additional observations from a re-analysis of the deposited data

How the results depend on the processing

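Of 112 alternative values of the members' log2 fold changes, 108 kept their direction. Scaling by library size alone turned Lrat to -0.83 and lowered the other 7 fitted members, whose direction held. Rbp4 went to 2.08, Ttr to 3.23, Rdh16 to 2.40, Aldh1a1 to 1.85, Aldh1a2 to -9.85, Aldh1a3 to -2.67 and Rarb to -4.28. CPM of all gene counts, which put the median of all genes at 4.78, gave Aldh1a3 3.56 and Rarb 1.70. Without siControl replicate 1, Ttr moved to 6.41, Rdh16 to 5.65 and Aldh1a1 to 5.05. With each library left out in turn, Aldh1a3 had fitted values of -1.47 to 4.70, the latter without siControl replicate 3, where siControl has 0 counts and the value is no fold, and could not be fitted without siAATF replicate 3. The wider list had 23 genes called higher and 4 lower. These became 13 and 11 with scaling by library size alone, which moved the median of all genes to -1.30 and the share of all genes called to 4.15% higher and 40.4% lower, and 5 and 2 of 10 tested with at least 10 counts in every library (24.5% and 24.6% of all genes). Leaving out each library gave 20 to 24 higher and 0 to 5 lower, with 0 lower without siControl replicate 3 (9.70% of all genes, from 14.4%) and 2 without siAATF replicate 1 (14.2%). DESeq2, RLE, upper-quartile scaling, filterByExpr, no filter and the study's criteria gave 22 to 25 higher and 3 to 5 lower. The groups share replicate numbers, but deviations of same-numbered libraries correlated at 0.145, 0.212 and -0.0229 across genes, and siControl replicate 1 was closer to siAATF replicate 3 (0.176), so the numbers are not taken to pair the samples. With the replicate block, 25 were higher and 4 lower. Of the named genes of the wider list, library size alone turned Bco1 to -0.42, Dhrs3 to -0.63 and Rara to -1.39, and Cyp26b1 ranged from -0.999 to 0.66 with a library left out, the latter without siControl replicate 3. The cause was not tested. The Aldh1a2 share of siControl, 60.7% on average, was 49.2% to 78.4% when a library was left out and 59.6% without dividing by length. Leaving out 1 of 3 libraries cannot move a mean by more than the SD, so the SD is no test of these shifts. Single siControl libraries held 25.1% to 83.5%. Few siControl counts limit what can be said of Lrat, Aldh1a3, Crabp2 and Rarb.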
